A study of Mus musculus with 6 samples.

Results

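The genes described here are 10 genes of iron handling and ferroptosis, named by their symbols rather than by any measured value: *Tfrc* and *Slc11a2* (iron uptake), *Fth1* and *Ftl1* (storage), *Ncoa4* (release from storage), *Slc40a1* (export), *Aco1* and *Ireb2* (iron sensing), and *Gpx4* and *Acsl4* (ferroptosis). All 10 were found among the 40166 genes of the deposited count table, and all 10 passed the filter on low counts, which kept 15355 genes. They were measured by bulk RNA sequencing in 6 libraries labelled as subcutaneous tumors of YUMM3.3, a BRAF-mutant mouse melanoma cell line, grown in C57BL/6 mice. Every tumor shares the cell line and the host strain, and was profiled after 17 days of treatment. The vehicle group (3 tumors, replicates 7, 8 and 9) received water by oral gavage 5 days a week. The RGS group (3 tumors, replicates 10, 11 and 12) received rigosertib (RGS), a small molecule described as a RAS mimetic, at 300 mg/kg on the same schedule. The labels give neither the age nor the sex of these mice, and all tumors come from 1 cell line, so the comparison is of RGS against vehicle in this model only.

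Iron enters most cells bound to transferrin through the transferrin receptor, is carried out of the endosome by a divalent metal transporter, and is held in ferritin, a shell of heavy and light chains. NCOA4 takes ferritin to the lysosome, where its iron is freed, and ferroportin carries iron out of the cell. When iron is low, the regulatory proteins IRP1 (*Aco1*) and IRP2 (*Ireb2*) bind hairpins in messenger RNAs called iron-responsive elements (IREs). Binding near the start of ferritin and ferroportin messages blocks their translation, while binding after the coding sequence of the transferrin receptor message protects it from decay. Ferroptosis is cell death by iron-dependent peroxidation of membrane lipids. GPX4 reduces lipid peroxides with glutathione, and ACSL4 loads polyunsaturated fatty acids into the phospholipids that are peroxidized. Melanoma cells can become sensitive to this form of death when they lose differentiation.

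The hairpins are shown because they divide the members in which they were found into messages whose amount follows IRP binding and messages whose translation does. Read counts measure amounts only. The loop CAGTGN was searched on the sense strand of the protein-coding transcripts of GENCODE M21 (GRCm38), keeping matches in which the 5 bases before and the 5 bases after the loop can pair, G with T included, and in which an unpaired C precedes them. Such a match in an untranslated region was found for 160 of 21901 protein-coding genes (0.731%), and for 4 of the 10 members. Each stretch of 29 bases below runs 5′ to 3′ along the message, with the 6 bases of the loop in capitals.
Fth1: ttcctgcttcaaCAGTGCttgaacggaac
Ftl1: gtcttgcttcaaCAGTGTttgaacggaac
Slc40a1: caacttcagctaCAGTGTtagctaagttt
Tfrc site a: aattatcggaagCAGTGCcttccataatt
Tfrc site b: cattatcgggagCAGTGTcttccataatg
Tfrc site c: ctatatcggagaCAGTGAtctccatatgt
Tfrc site d: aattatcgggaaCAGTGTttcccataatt
The *Fth1* stretch lies in the 5′ untranslated region at chr19:9982732-9982760 on the plus strand. The *Ftl1* stretch lies in the 5′ untranslated region at chr7:45459779-45459807 on the minus strand, and the *Slc40a1* stretch likewise at chr1:45925465-45925493 on the minus strand. The 4 *Tfrc* stretches lie in the 3′ untranslated region on the plus strand, in exon 19, at chr16:32631219-32631247, chr16:32631598-32631626, chr16:32631663-32631691 and chr16:32631710-32631738. No match of these letters was found in *Slc11a2*, *Ncoa4*, *Aco1*, *Ireb2*, *Gpx4* or *Acsl4*. The search was strict and also gave no match in *Epas1*, whose message carries an IRE. A gene without a match can therefore still carry one. Among the other genes listed for the pathway, *Alas2* had a match in the 5′ untranslated region and *Bola3* had one in the 3′ untranslated region.

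The libraries held between 13837932 and 32555494 counts. All 3 vehicle libraries were sequenced more deeply than any RGS library, which leaves depth confounded with treatment. Ribosomal protein genes (82 genes) took 5.66%, 8.39% and 10.2% of the counts in vehicle replicates 7, 8 and 9 and between 3.15% and 3.68% with RGS, and mitochondrial transcripts took between 2.13% and 3.20% with vehicle and between 5.60% and 8.22% with RGS. The tissue label, melanoma tumor, was checked against markers: *Dct*, *Tyr* and *Mlana* had 0 counts in all 6 libraries and *Mitf* had between 74 and 261 counts. In the rest of the melanocyte list, *Sox10* had 18 counts in RGS replicate 11 and 0 in every other library. *Tyrp1* had at most 2 counts, *Pmel* at most 25 and *S100b* at most 48. Of the other cells a tumor can hold, the 4 hemoglobin genes, *Cd3e*, *Cd8a* and *Adgre1* also had 0 counts in all 6 libraries. The zeros of *Dct*, *Tyr* and *Mlana* were not read against the label, since melanoma cells can lose differentiation. Whether the near absence of *Sox10* has the same source was not tested. The zeros of blood and immune genes do go against the label of a whole tumor, which would hold such cells. The hemoglobin genes, *Cd3e* and *Cd8a* were absent, and most macrophage markers were at or near 0. Whether the libraries hold whole tumor tissue is therefore in doubt, and "tumor" below is the word of the labels. In bulk tumors, fewer cells of a type and less RNA per cell cannot be told apart. Values are CPM, the usual unit of counts relative to the size of the library, scaled with edgeR's TMM factors, errors are SDs of 3 tumors, and log2 fold changes (RGS against vehicle), their standard errors (SE) and adjusted p-values come from edgeR's quasi-likelihood test fitted across all 15355 genes.

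RGS tumors had lower *Tfrc*, *Ncoa4* and *Gpx4* and higher *Acsl4* than vehicle tumors, by between 1.66-fold and 2.36-fold. The other 6 members did not pass the threshold of an adjusted p under 0.05. Of the 10 members 3 were lower, where 16.5% of all tested genes were lower, and 1 was higher, where 16.3% of all tested genes were higher. In 6 members the values of the groups did not overlap, as in 45.8% of all tested genes. Of the members 4 of 10 passed in either direction, beside 32.8% of all tested genes. The median log2 fold change was -0.13 over the members and -0.048 over all tested genes.

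**Figure D1:**
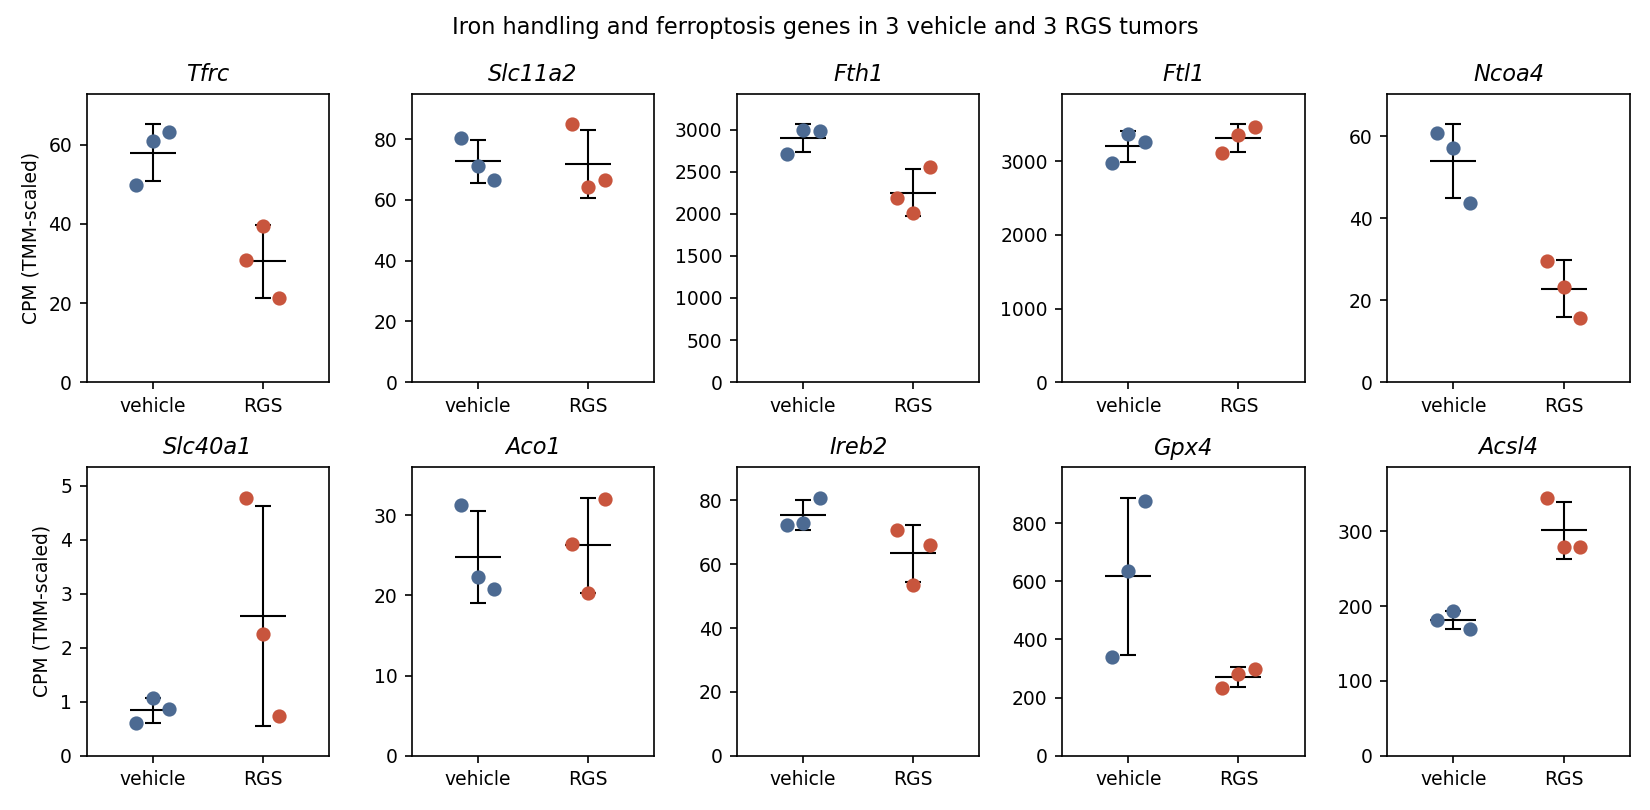
TMM-scaled CPM (y axis, from 0) of each of the 10 genes in the 3 vehicle tumors (blue) and 3 RGS tumors (red). Points are tumors in replicate order, horizontal bars are means and whiskers are SDs. *Tfrc*, *Ncoa4* and *Gpx4* are lower and *Acsl4* is higher in every RGS tumor than in any vehicle tumor, while *Ftl1*, *Slc11a2*, *Slc40a1* and *Aco1* overlap.

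*Tfrc* (ENSMUSG00000022797.16, chr16:32608920-32632794 in GRCm38) encodes the transferrin receptor. Its level was 49.8, 61.0 and 63.1 CPM in the vehicle tumors and 30.9, 39.4 and 21.2 CPM in the RGS tumors. No RGS tumor reached the vehicle range, with the lowest value in RGS replicate 12. The mean fell from 58.0 ± 7.16 to 30.5 ± 9.12 CPM (± SD of 3 tumors per group), a log2 fold change of -0.93 (SE 0.22, adjusted p = 0.00278 from edgeR). *Slc11a2* (ENSMUSG00000023030.16, chr15:100387898-100425072) encodes the divalent metal transporter that moves iron out of endosomes. It was measured at 80.5, 71.2 and 66.4 CPM with vehicle and at 84.8, 64.4 and 66.4 CPM with RGS, so the groups overlapped over nearly their whole range. Its log2 fold change was -0.015, with a 95% interval from -0.38 to 0.34 (adjusted p = 0.955 from edgeR). 
The transferrin receptor is known to be abundant on dividing cells, and genes of cell division moved the same way as *Tfrc*. Of 8 genes listed for proliferation, 7 were lower with RGS and none higher, beside 16.5% lower and 16.3% higher among all tested genes. Their summed level was between 807.8 and 835.6 CPM with vehicle and between 375.6 and 458 CPM with RGS. *Mki67* averaged 132.8 CPM in vehicle and 48.5 CPM in RGS tumors (log2 fold change -1.45). The part of cell division in the decrease of *Tfrc* was not tested.

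Ferritin messages were among the most abundant of all. Per kilobase of gene length, *Fth1* ranked 3 and *Ftl1* ranked 8 of 15355 genes in vehicle tumors, and 11 and 12 in RGS tumors. *Fth1* (ENSMUSG00000024661.6, chr19:9982703-9985092), the heavy chain, which carries the ferroxidase activity, was at 2707, 2999 and 2982 CPM with vehicle and 2189, 2009 and 2556 CPM with RGS. All RGS tumors were below all vehicle tumors, but the difference did not pass the threshold (2896 ± 164 against 2252 ± 279 CPM, ± SD of 3 tumors per group; log2 fold change -0.36, SE 0.15, adjusted p = 0.0675 from edgeR). *Ftl1* (ENSMUSG00000050708.16, chr7:45457944-45459884), the light chain, which helps to form the mineral core, was at 2972, 3372 and 3261 CPM with vehicle and 3108, 3362 and 3471 CPM with RGS. These ranges overlapped, and the log2 fold change of 0.050 had a 95% interval from -0.25 to 0.35 (adjusted p = 0.821 from edgeR). *Fth1* passed the threshold under 7 of 18 alternatives and had a log2 fold change of 0.055 when a trend of counts on gene length was removed, so its call depends on the processing. Ferritin genes have many processed copies: *Ftl1-ps1*, with 95 to 184 counts, and *Fth-ps2*, with at most 14 counts, took few reads, and how reads that fit several copies were counted is not given in the sources used here.

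The heavy chain message was lower relative to the light chain message in each RGS tumor. The ratio of *Fth1* to *Ftl1* counts within a tumor, which needs no scaling factor, was 0.911, 0.890 and 0.915 in the vehicle tumors and 0.704, 0.598 and 0.736 in the RGS tumors. The vehicle ratios lay close together and above all RGS ratios. On the log2 scale the mean moved from -0.14 ± 0.022 to -0.56 ± 0.16 (± SD of 3 tumors per group), a difference of -0.42. The exact two-sided permutation test gave p = 0.1, the smallest that 3 against 3 tumors allow (adjusted p = 0.167 over the 5 ratios tested). Together both chains took 0.640% ± 0.030 of all counts with vehicle and 0.529% ± 0.022 with RGS (± SD of 3 tumors per group). These shares are of raw counts, without the TMM factors used for CPM. The factors were larger in every vehicle library than in any RGS library, so the decrease is smaller in CPM.

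*Ncoa4* (ENSMUSG00000056234.15, chr14:32159865-32179855), the receptor for the breakdown of ferritin, was lower with RGS, by about as much as *Gpx4* (described further on), from which its log2 fold change differed by less than either SE. It was at 60.8, 57.1 and 43.7 CPM with vehicle and at 29.5, 23.3 and 15.7 CPM with RGS, without overlap. The mean fell from 53.9 ± 8.96 to 22.8 ± 6.89 CPM (± SD of 3 tumors per group), a log2 fold change of -1.24 (SE 0.23, adjusted p = 3.70e-04 from edgeR). Of all tested genes, 14.4% had a lower log2 fold change.

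*Slc40a1* (ENSMUSG00000025993.10, chr1:45908068-45926523) encodes ferroportin, the known iron exporter of mammalian cells, which is abundant in macrophages that recycle iron. It was scarce here: vehicle libraries held 21, 30 and 20 counts, and RGS libraries 101, 30 and 12. In CPM this was 0.599, 1.07 and 0.860 with vehicle and 4.78, 2.26 and 0.734 with RGS, so replicates 10 and 11 lay above the vehicle range and replicate 12 inside it. The log2 fold change of 1.62 had a 95% interval from -0.22 to 3.46 (adjusted p = 0.167 from edgeR), and it was 0.81 without RGS replicate 10 and 2.05 without RGS replicate 12. Of 12 macrophage markers 10 were too low to be tested. *Adgre1*, *C1qc* and *Fcgr1* had 0 counts in all libraries, and *Cd163*, the scavenger receptor for hemoglobin, had at most 1 count. The 2 tested markers, *Cd68* and *Mertk*, did not pass the threshold, and the summed level of the list was between 90.1 and 100.6 CPM with vehicle and between 101.6 and 137.6 CPM with RGS.

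Neither iron regulatory protein had a message that passed the threshold. *Aco1* (ENSMUSG00000028405.9, chr4:40143081-40198338), which encodes a cytosolic aconitase that binds IREs when it lacks its iron-sulfur cluster, was at 31.3, 22.3 and 20.8 CPM with vehicle and at 26.4, 20.3 and 32.1 CPM with RGS. The groups overlapped, and its log2 fold change of 0.082 had a 95% interval from -0.41 to 0.58 (adjusted p = 0.824 from edgeR). *Ireb2* (ENSMUSG00000032293.8, chr9:54863789-54912530), whose protein is removed when iron is plentiful, was at 72.3, 73.1 and 80.8 CPM with vehicle and at 70.6, 53.5 and 66.2 CPM with RGS. Its groups did not overlap, by a margin of less than 2 CPM, and the log2 fold change of -0.25 (95% interval from -0.60 to 0.11) did not pass the threshold (adjusted p = 0.280 from edgeR). The ratio of *Ireb2* to *Aco1* counts was 2.31, 3.28 and 3.88 with vehicle and 2.67, 2.64 and 2.06 with RGS, with overlap (exact permutation p = 0.3, adjusted p = 0.3).

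*Gpx4* (ENSMUSG00000075706.10, chr10:80047166-80056439), the selenoprotein that reduces lipid peroxides, was lower with RGS, and it varied more among vehicle tumors than any other member that passed. It was at 338, 637 and 876 CPM in vehicle replicates 7, 8 and 9 and at 231, 280.4 and 297 CPM in the RGS tumors. No RGS tumor reached the lowest vehicle tumor, replicate 7, but the gap to it was small beside the range of the vehicle group. The vehicle mean of 617 ± 269 CPM stood against 269.7 ± 34.3 CPM in RGS tumors (± SD of 3 tumors per group), a log2 fold change of -1.19 (SE 0.24, adjusted p = 7.59e-04 from edgeR), and -0.85 without vehicle replicate 9 and -1.49 without vehicle replicate 7. The order of the vehicle tumors was that of their ribosomal protein share, given above, and that share was lower with RGS too, but its part in the decrease of *Gpx4* was not tested. With the trend on gene length removed, the log2 fold change of *Gpx4* was -0.97 (adjusted p = 5.93e-04). *Gpx4-ps2*, by its name a pseudogene of *Gpx4*, had 171 to 1084 counts beside 3724 to 20383 for *Gpx4*, so reads shared between them may be placed at either gene.

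*Acsl4* (ENSMUSG00000031278.12, chrX:142317993-142390535), the ligase that activates arachidonic and related fatty acids, was the 1 member that was higher. It was at 181, 193 and 169.8 CPM with vehicle and at 345, 279 and 279 CPM with RGS, and the groups were far apart beside their spread. The mean rose from 181 ± 11.7 to 301 ± 37.7 CPM (± SD of 3 tumors per group), a log2 fold change of 0.73 (SE 0.15, adjusted p = 0.00111 from edgeR). Of all tested genes, 80.1% had a lower log2 fold change. Within a tumor, the ratio of *Acsl4* to *Gpx4* counts was 0.535, 0.303 and 0.194 with vehicle and 1.49, 0.997 and 0.939 with RGS. Every RGS ratio was above every vehicle ratio, by 1.82 on the log2 scale between the group means, with the smallest exact permutation p that the design allows (p = 0.1, adjusted p = 0.167). These ratios are of counts not divided by gene length, so only their change between tumors can be read.

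**Figure D2:**
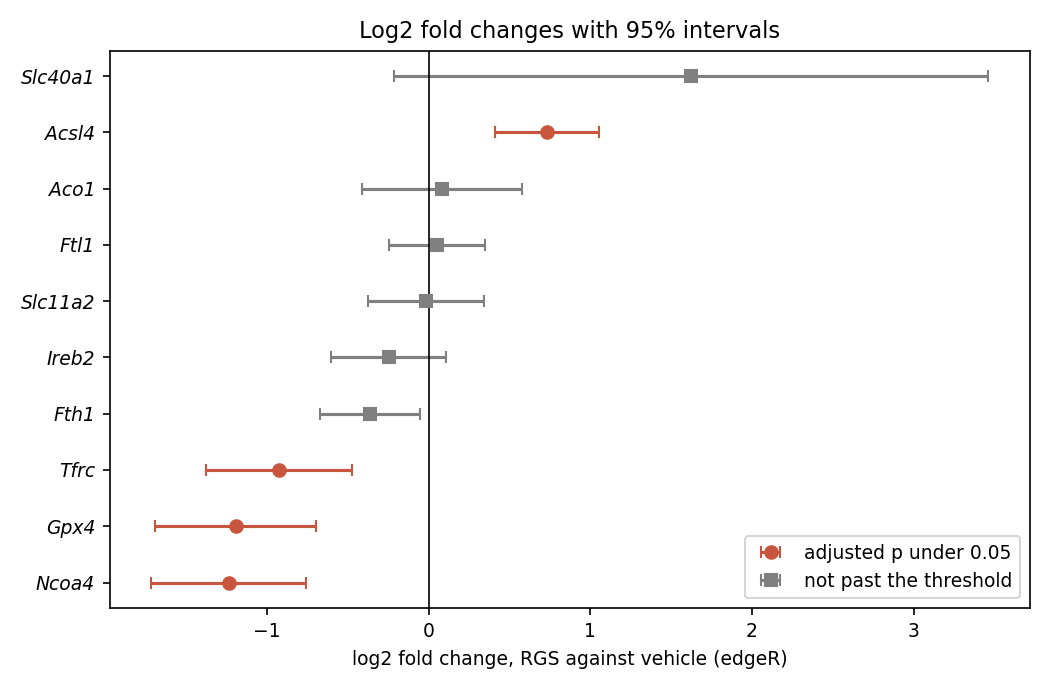
Log2 fold changes of the 10 genes (x axis, RGS against vehicle, edgeR) with 95% intervals, ordered by size. Red circles passed an adjusted p under 0.05 and grey squares did not. The intervals of *Ncoa4*, *Gpx4*, *Tfrc* and *Fth1* lie below 0, of which *Fth1* is not past the adjusted threshold, that of *Acsl4* lies above 0, and *Slc40a1* has the widest, from -0.22 to 3.46.

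The remaining ratios placed uptake against storage and export. The ratio of *Tfrc* to *Fth1* counts was 0.0184, 0.0203 and 0.0212 with vehicle and 0.0141, 0.0196 and 0.00828 with RGS. RGS replicate 11 lay inside the vehicle range, and the difference of -0.60 on the log2 scale did not exceed the spread (exact permutation p = 0.2, adjusted p = 0.25). It was -0.26 without RGS replicate 12. The ratio of *Slc40a1* to *Tfrc* counts was 0.0120, 0.0175 and 0.0136 with vehicle and 0.154, 0.0574 and 0.0347 with RGS, higher in every RGS tumor (difference 2.25 on the log2 scale, exact permutation p = 0.1, adjusted p = 0.167). Its numerator was at most 101 counts, and without RGS replicate 10 the difference was 1.65.

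**Figure D3:**
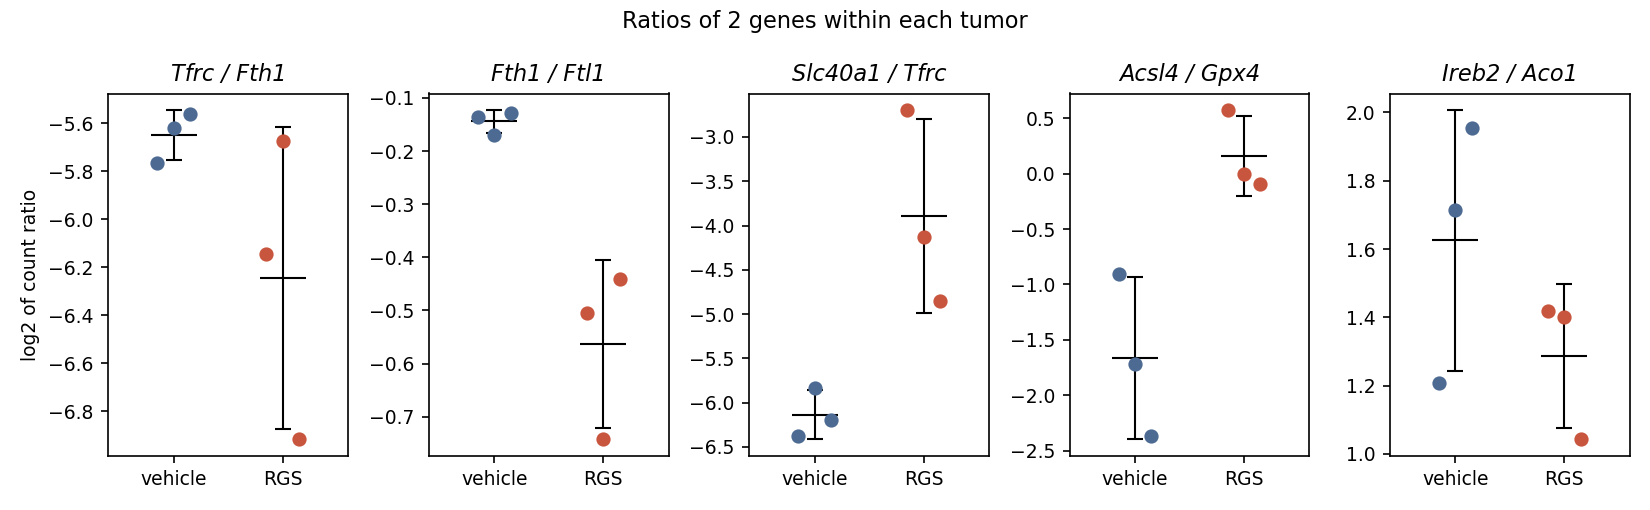
Log2 ratios of the counts of 2 genes within each tumor (y axis, a separate scale in each panel), for 3 vehicle tumors (blue) and 3 RGS tumors (red), with means (bars) and SDs (whiskers). The groups are apart for *Fth1* over *Ftl1*, *Slc40a1* over *Tfrc* and *Acsl4* over *Gpx4*, and overlap for *Tfrc* over *Fth1* and *Ireb2* over *Aco1*.

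Levels can be set side by side only per kilobase of gene length, and on that scale ferritin was far above the genes that bring iron in or out. In vehicle tumors the mean was 3344 CPM per kilobase for *Fth1*, 2389 for *Ftl1*, 358 for *Gpx4* and 33.5 for *Acsl4*. It was 11.4 for *Slc11a2*, 9.37 for *Tfrc*, 7.95 for *Ireb2*, 5.75 for *Ncoa4*, 5.52 for *Aco1* and 0.0936 for *Slc40a1*. Neighbours that differed by less than the sum of their SDs were *Slc11a2* and *Tfrc*, *Tfrc* and *Ireb2*, and *Ncoa4* and *Aco1*. In RGS tumors *Fth1* (2600 ± 322) and *Ftl1* (2473 ± 139) no longer differed by more than the sum of their SDs. *Tfrc* (4.93 CPM per kilobase) came after *Ireb2* (6.69) and *Aco1* (5.84), with differences within their spread, and *Ncoa4* (2.44) came before *Slc40a1* (0.288).

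Another 122 genes of the pathway were listed in 7 groups, and 108 of them were tested. With RGS 28 were lower and 24 higher, and 56 did not pass the threshold, with a median log2 fold change of -0.0065. Among all tested genes 16.5% were lower and 16.3% higher, and the counts of each list below stand beside these shares. Genes named below without a note follow a rule on size, while *Slc7a11*, *Aifm2*, *Gclm*, *Txnrd1*, *Acsl3*, *Fads1*, *Elovl5*, *Agps*, *Far1*, *Slc25a37*, *Hspa9*, *Nfu1*, *Hmox1*, *Ptgs2*, *Gclc* and *Slc3a2* were chosen after their values were seen.

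**Figure D4:**
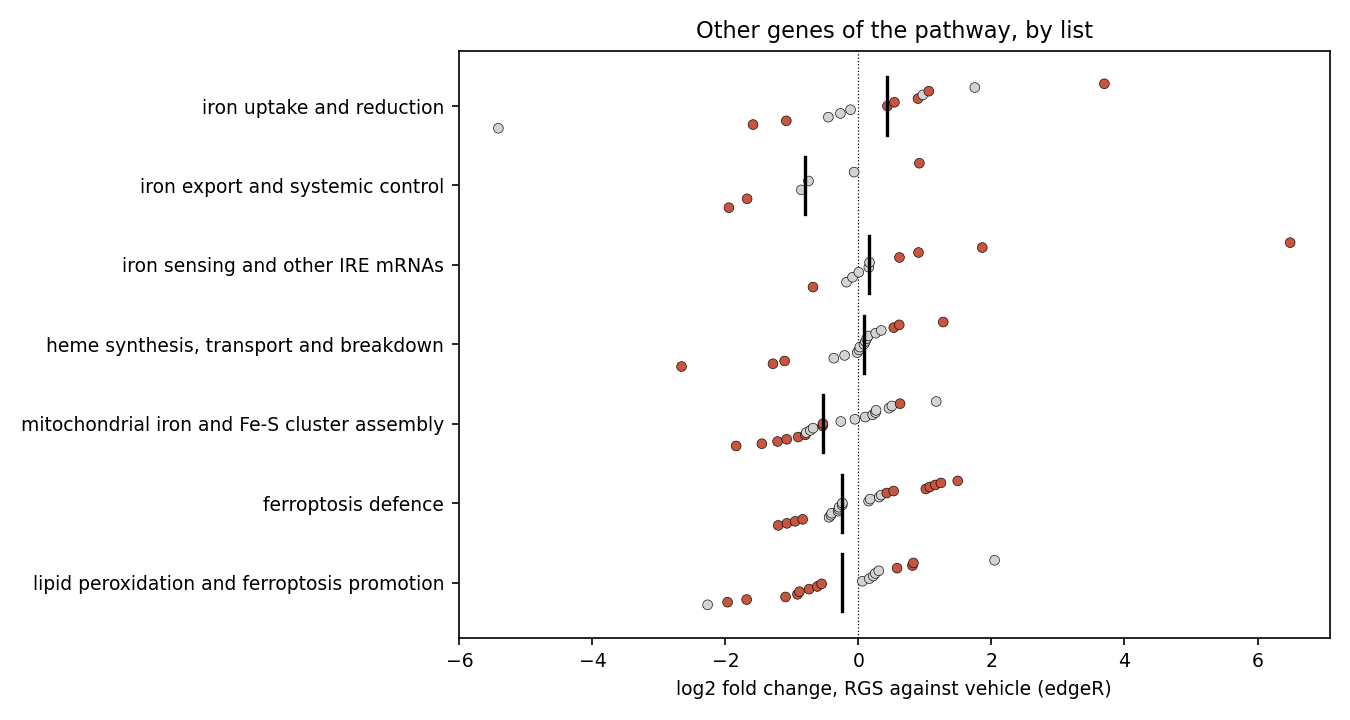
Log2 fold changes (x axis, RGS against vehicle, edgeR) of the 108 tested genes of the 7 lists (rows). Each point is a gene, red where the adjusted p was under 0.05 and grey otherwise, and black bars are list medians. Every list has genes on both sides of 0, 2 points stand far out, *Steap4* at -5.41 and *Alas2* at 6.49, each with 0 counts in all tumors of a group, and the bar of mitochondrial iron and Fe-S cluster assembly lies at -0.53.

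Of 23 tested genes listed for defence against ferroptosis, 7 were higher and 4 lower (median log2 fold change -0.24). Of the genes of cystine import and glutathione synthesis and recycling, 4 rose. *Slc7a11*, the cystine importer, rose from 230.1 ± 57.5 to 464.5 ± 65.9 CPM (± SD of 3 tumors per group; log2 fold change 1.01), *Gss*, which completes glutathione, had a log2 fold change of 1.16, and *Gsr*, which regenerates it, one of 1.24. *Gclm*, the modifier subunit of the first enzyme, had a log2 fold change of 0.43 (adjusted p = 0.0361 from edgeR). *Gclc*, the catalytic subunit of that enzyme, was at -0.30 and *Slc3a2*, the partner of the importer, at 0.34, both short of the threshold. The groups overlapped for *Gclc* but not for *Slc3a2*. *Aifm2*, which encodes FSP1, the reductase that keeps ubiquinone in its protective form, rose from 22.1 ± 1.46 to 46.5 ± 5.46 CPM (± SD of 3 tumors per group; log2 fold change 1.07), and *Coq2*, an enzyme that makes ubiquinone, fell from 90.8 ± 20.4 to 39.3 ± 8.23 CPM (log2 fold change -1.21). *Dhcr7* had the largest increase among the tested genes of the list, with a log2 fold change of 1.49. It is counted among the 7 higher genes, but it uses up the protective sterol 7-dehydrocholesterol in making cholesterol, a role opposite to defence. *Scd1* and *Acsl3*, which make and activate monounsaturated fatty acids, had log2 fold changes of -1.07 and -0.84, and *Dhodh*, a mitochondrial ubiquinone reductase, one of -0.95. *Txnrd1*, thioredoxin reductase, was at 0.53. *Acss2*, which overlaps *Gss*, had 449 to 811 counts beside 988 to 1973 for *Gss*, and *H2afy2*, which overlaps *Aifm2*, had 88 to 537 beside 536 to 1108, so their counts could be shared if strand was ignored. *Gclm* missed the threshold without vehicle replicate 8 or 9 or RGS replicate 11 or 12 (adjusted p of up to 0.152), *Txnrd1* without vehicle replicate 9 or RGS replicate 10 (up to 0.104), and *Dhodh* without vehicle replicate 8 or 9 or RGS replicate 12 (up to 0.0822).

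Among genes listed for lipid peroxidation and the promotion of ferroptosis, 8 of 18 tested genes were lower and 3 higher (median log2 fold change -0.25). The desaturases and the elongase that make long polyunsaturated fatty acids were lower in every RGS tumor: *Fads2* had a log2 fold change of -1.10, *Elovl5* one of -0.74 and *Fads1* one of -0.62. The ether lipid enzymes *Agps* and *Far1* had log2 fold changes of -0.89 and -0.55, and *Far1* missed the threshold without RGS replicate 11 (adjusted p = 0.0550). The genes that rose with *Acsl4* were *Por*, the reductase that feeds cytochromes P450, from 270.4 ± 43.3 to 479.8 ± 26.8 CPM (± SD of 3 tumors per group; log2 fold change 0.83), *Lpcat3*, which inserts polyunsaturated chains into phospholipids (0.81), and *Bach1*, a heme-binding repressor (0.58). *Cyb5r1*, another reductase linked to lipid peroxidation, had the largest decrease among the genes of the list past the threshold, from 225.1 ± 10.2 to 57.6 ± 9.82 CPM (± SD of 3 tumors per group; log2 fold change -1.97), and *Chac1*, which degrades glutathione, fell from 248 ± 22.9 to 77.4 ± 13.2 CPM (log2 fold change -1.68). *Ptgs2*, often used as a marker of ferroptosis, averaged 1737 CPM in vehicle and 1944 CPM in RGS tumors and did not pass the threshold (log2 fold change 0.16, adjusted p = 0.413 from edgeR). Its groups did not overlap, as in 45.8% of all tested genes, with at most 1791 CPM in vehicle and at least 1800 CPM in RGS tumors. *Lpcat3* overlaps *Emg1*, which had 912 to 3265 counts beside 269 to 702, and it missed the threshold without vehicle replicate 9, RGS replicate 10 or RGS replicate 12 (adjusted p of up to 0.0928). *Bach1* missed it without vehicle replicate 8, vehicle replicate 9 or RGS replicate 10 (adjusted p of up to 0.116).

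Mitochondria build iron-sulfur (Fe-S) clusters. Of 21 tested genes of iron import and Fe-S cluster assembly, 8 were lower and 1 higher. *Slc25a37*, the mitochondrial iron importer mitoferrin 1, fell from 364 ± 20.9 to 209.6 ± 45.6 CPM (± SD of 3 tumors per group; log2 fold change -0.80). The assembly factors *Hscb*, *Isca2* and *Nfu1* had log2 fold changes of -1.45, -1.21 and -1.08, and the chaperone *Hspa9* one of -0.54. *Cisd1*, a protein of the outer membrane that carries an Fe-S cluster, was higher (0.63). *Hspa9* missed the threshold without RGS replicate 11 (adjusted p = 0.0532) and *Cisd1* without RGS replicate 12 (adjusted p = 0.130).

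Heme synthesis is the other large use of iron. Of 17 tested genes 3 were higher and 3 lower, near the shares among all tested genes (16.3% higher and 16.5% lower). *Alas1*, which starts heme synthesis, rose from 51.6 ± 8.15 to 125 ± 14.0 CPM (± SD of 3 tumors per group; log2 fold change 1.27), and *Alad*, the next enzyme, had a log2 fold change of 0.61. *Cpox*, a later enzyme of the same route, had one of -1.28, and *Abcb10*, a mitochondrial transporter that binds mitoferrin, fell from 93.6 ± 4.76 to 14.8 ± 7.79 CPM (± SD of 3 tumors per group; log2 fold change -2.66). *Hmox1*, the inducible enzyme that frees iron from heme, averaged 231 CPM in vehicle and 200.4 CPM in RGS tumors and did not pass (log2 fold change -0.21, adjusted p = 0.305 from edgeR). Its groups did not overlap, with at least 230.4 CPM in vehicle and at most 214.7 CPM in RGS tumors. *Hmox2*, the constitutive form, had a log2 fold change of 0.53. *Hmox2* overlaps *Cdip1*, which had 817 to 1507 counts beside 817 to 1456. *Alad* missed the threshold without vehicle replicate 7 or 8 or RGS replicate 11 or 12 (adjusted p of up to 0.128), and *Hmox2* without vehicle replicate 8 or RGS replicate 11 or 12 (up to 0.107).

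Among genes of iron uptake and reduction, 5 of 13 tested genes were higher and 2 lower. Genes of the STEAP family went apart: *Steap3*, which reduces iron in the endosome, had a log2 fold change of 0.90, *Steap1* one of -1.58 and *Steap2* one of -1.08. *Pcbp1*, a chaperone that brings iron to ferritin, rose from 362 ± 31.0 to 526 ± 65.4 CPM (± SD of 3 tumors per group; log2 fold change 0.54), and *Lcn2*, which binds iron carried by siderophores, had a log2 fold change of 1.06. *Pcbp1* missed the threshold without vehicle replicate 8 or RGS replicate 12 (adjusted p of up to 0.0751), and *Lcn2* without the same tumors (adjusted p of up to 0.118). Among genes of export and its control, 1 of 6 tested genes was higher and 2 lower. *Cp*, ceruloplasmin, the ferroxidase that works with ferroportin, fell from 76.8 ± 0.872 to 24.1 ± 8.13 CPM (± SD of 3 tumors per group; log2 fold change -1.67), and *Hfe*, which binds the transferrin receptor, had a log2 fold change of -1.95. *Cp* overlaps *Hps3*, which had 147 to 767 counts beside 300 to 2693. *Neo1*, a co-receptor for hemojuvelin, had a log2 fold change of 0.92.

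The list of iron sensing and other messages with IREs had 4 of 10 genes higher and 1 lower. *Fbxl5*, the ubiquitin ligase subunit that removes IRP2 when iron is plentiful, fell from 84.8 ± 13.6 to 52.8 ± 4.25 CPM (± SD of 3 tumors per group; log2 fold change -0.68), and *Herc2*, a ligase for NCOA4, rose from 48.3 ± 8.01 to 90.4 ± 14.6 CPM (log2 fold change 0.90). *Epas1*, whose message carries an IRE, was low, averaging 1.42 CPM in vehicle and 5.19 CPM in RGS tumors (log2 fold change 1.86, adjusted p = 0.0249 from edgeR), and missed the threshold without vehicle replicate 8 or RGS replicate 10 (adjusted p of up to 0.139). *Cdc42bpa* had a log2 fold change of 0.62 and missed the threshold without vehicle replicate 8, vehicle replicate 9, RGS replicate 10 or RGS replicate 12 (adjusted p of up to 0.0987). *Alas2*, the erythroid form of the first heme enzyme, was counted as higher in this list, but it had 0 counts in all vehicle tumors and 15, 0 and 12 counts in RGS replicates 10, 11 and 12, and *Apex2*, which overlaps it, had 84 to 217.

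The other marker lists gave these counts, beside 16.5% lower and 16.3% higher among all tested genes. Of endothelial genes 2 of 3 tested were higher with RGS (*Cdh5* and *Egfl7*), of fibroblast genes 1 of 5 was higher and 3 were lower, and of keratinocyte genes 1 of 2 was higher (*Ivl*, at 0 counts in all vehicle tumors). No melanocyte gene of 2 tested and no neutrophil gene of 1 tested passed, no gene of the T and NK cell list was high enough to be tested, and of the red blood cell list *Alas2* was the 1 gene tested. The part of these cell types in the differences of the 10 genes was not tested.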

How the data were processed

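Bulk RNA sequencing of 6 YUMM3.3 tumors, 3 vehicle and 3 RGS, was analysed. The authors deposited raw counts per gene, 1 column per tumor, matched to samples by title. The submitters' processing notes list cutadapt 1.18, FastQC 0.11.7, STAR 2.7.1a, featureCounts 1.6.4 and mm10. Whether strand was used and how multiply mapped reads were treated is not given in the sources used here. Gene lengths are those of the deposited table, and 9 of the 10 members have the same coordinates in GENCODE M21. *Fth1* differs in its span there.

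A gene was tested if its median count reached 5 in 1 group or both. The test was edgeR 4.0.16 in R 4.3.3 (TMM factors, quasi-likelihood F test, Benjamini-Hochberg adjustment over all tested genes). SEs were derived from the F statistic. DESeq2 1.42.0, limma 3.58.1 (voom) and other factors, filters and thresholds were alternatives, and the procedure was tested on simulated data. Ratios were tested by exact two-sided permutation. *Trf* and *Hfe2* stand for *Tf* and *Hjv*. Named pathway genes are up to 3 in each direction per list, past the threshold, without overlap between groups and with a mean of at least 1 CPM, by size of log2 fold change, and some genes of the lists are not reported here. The members and lists were chosen with earlier results of these data known. The labels name no batches, and do not say that each tumor came from its own mouse, so p-values measure the spread between these tumors. A floor of 3 counts was at most 0.226 CPM and covers counting error only.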

Additional observations from a re-analysis of the deposited data

How the results depend on the processing

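No paired analysis was possible because the groups share no replicate number. The calls of *Tfrc*, *Ncoa4*, *Gpx4* and *Acsl4* kept their direction under all 18 alternatives, and their side of the threshold under all but the one that also required a log2 fold change beyond 1 in size, which *Tfrc* and *Acsl4* do not reach. That requirement left 1450 lower and 1168 higher genes of all tested, 0 higher members, and 16 lower and 10 higher genes of the other pathway lists. Scaling by library size only moved the median log2 fold change of all genes from -0.048 to -0.19, the counts of all genes to 3152 lower and 1870 higher, and the higher genes of the other lists from 24 to 13. Over fits without 1 tumor each, that last count was between 13 (without vehicle replicate 8, and without RGS replicate 12) and 22. *Fth1* passed with upper-quartile factors, library size only, DESeq2, voom, ribosomal protein genes left out, and without vehicle replicate 7 or RGS replicate 12 (adjusted p from 8.23e-04 to 0.0469), and was at 0.055 with the trend on gene length removed, an alternative chosen after seeing the data that moved the median of all genes to 0.055. Apart from *Fth1*, 3 members changed sign, none of them past the threshold under any of the 18 alternatives: *Slc11a2* was at 0.038 with the length trend removed, *Ftl1* at -0.091 with library size only and -1.08e-04 with voom, and *Aco1* at -0.068 with library size only. Without 1 tumor each they ranged from -0.15 to 0.065, from -0.0077 to 0.11 and from -0.10 to 0.29. With the length trend removed *Ftl1* was at 0.30 (adjusted p = 0.0636 from edgeR), and the ratio of *Fth1* to *Ftl1* counts was not corrected for that trend. Depth limits *Slc40a1*, with at most 101 counts.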
